A study of Mus musculus with 4 samples.

Results

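The genes that encode the translation initiation factors were followed across 4 RNA libraries from mouse embryonic stem cells. A locus was taken as a member when its RefSeq identifiers map to a single symbol beginning with Eif and its mean over the libraries was at least 1 FPKM (fragments counted per unit of transcript length and relative to library size). The rule also leaves out the Eif2ak kinases, Eif2c names (Argonaute genes) and pseudogenes. Of 55 loci with a symbol beginning with Eif, 4 were Eif2ak kinases and 4 others lay under the minimum, which left 47 genes of 23697 loci. The members nearest to the minimum were Eif5a2 and Eif4ebp3, with means of 7.98 and 8.23 FPKM. The 4 genes outside it were Eif4e3 at a mean of 0.449 FPKM, Eif4a3l1 at 0.124, Eif3j1 at 0.104 and Eif4e1b at 0.0764. The rule uses the level over all libraries and not the difference between the groups.

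Translation of most cellular mRNA starts at the cap on the 5′ end. The factor eIF4E binds the cap, the scaffold eIF4G joins it to the RNA helicase eIF4A, and eIF3 brings in the small ribosomal subunit with the initiator tRNA held by eIF2 and GTP. eIF1 and eIF1A guard the choice of the start codon, eIF5 triggers GTP hydrolysis on eIF2, eIF2B recharges eIF2 with GTP, and eIF5B joins the large subunit. The binding proteins of eIF4E (4E-BPs), controlled by the kinase mTOR, and the phosphorylation of eIF2 by the Eif2ak kinases are the main switches of the process, and embryonic stem cells are known for a low overall rate of translation.

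The cells were WW6, a line of mixed strain origin given in the labels as about 75% 129/Sv, 20% C57/B6J and 5% SJL, grown without feeder cells on gelatin with serum and leukemia inhibitory factor. All libraries came from transiently transfected cells. The 2 control libraries, A and B, received small interfering RNA against GFP per the treatment protocol, which the sample labels call a mock construct, and the 2 knockdown libraries, A and B, received one against Kdm5b, a histone H3 lysine 4 demethylase. The time from transfection to harvest is not given in the sources used here, and the labels do not say whether the letters A and B mark cultures of their own. All p-values here therefore rest on a spread between libraries that may be technical.

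Kdm5b itself measured 99.7 (A) and 145 (B) FPKM in controls, against 22.7 (A) and 31.1 (B) after knockdown. Its values did not overlap, yet with 2 libraries a group its log2 fold change of -2.14 (SE 0.30) also missed the threshold of the test described below (adjusted p = 0.562 by limma). The steps between the lowest values gave 1 FPKM of a 2000 bp transcript an estimated worth of 6.05 to 8.17 fragments a library, the lowest in knockdown A. That library also listed 11953 loci at 0, against 8131 to 8609 in the others, while no initiation factor gene was at 0 in any library. The estimate could be made for 34 of the 47 genes, those with 1 known transcript length, and the fewest fragments behind a value were 15.7, for Eif4ebp3 in knockdown A. Of 10 pluripotency markers all were measured above 1 FPKM, with a summed level of 3612 and 4428 FPKM in the controls and 4739 and 3990 FPKM in the knockdown libraries. Dppa5a and Pou5f1 make up most of that sum, while Klf4 (46.5 and 55.4 FPKM, against 29.3 and 26.8 under knockdown) and Esrrb (174 and 137 FPKM, against 107 and 121) were below both controls in both knockdown libraries. The 7 fibroblast markers summed to 9.25 and 2.92 FPKM in the controls and 0.258 and 1.55 FPKM in the knockdown libraries, with Lum at 0 throughout. The 5 endoderm markers summed to 6.46 and 7.49 FPKM in the controls and 2.32 and 2.57 FPKM in the knockdown libraries, and the 5 mesoderm and ectoderm markers to between 11.8 and 16.3 FPKM. The endoderm markers did not move together: in knockdown A the whole sum was Gata6, at 2.32 FPKM against 1.81 and 2.09 in the controls, with the other 4 at 0. The part of these other cell types in the results was not tested. In bulk RNA fewer cells of a type and less RNA per cell cannot be told apart.

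Knockdown and control libraries were compared with limma on log2(FPKM + 1) over the 11784 loci whose mean reached 1 FPKM, and a log2 fold change below is always on that scale, which understates the change of low genes. No initiation factor gene passed an adjusted p under 0.05 in either direction, where 0.0339% of all tested loci did. At an unadjusted p under 0.05 the count of initiation factor genes was also 0, where 2.46% of tested loci passed. The lowest adjusted p among the 47 genes was 0.918 by limma. Of the 47, 26 had a positive and 21 a negative log2 fold change, and the median was 0.06, beside -0.03 over all tested loci. The values ran from -1.09 for Eif1b to 0.37 for Eif1a. Both knockdown libraries lay above both controls for 9 genes and below both for 5, that is 14 of 47, where 15.0% and 16.9% of tested loci did so.

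**Figure D1:**
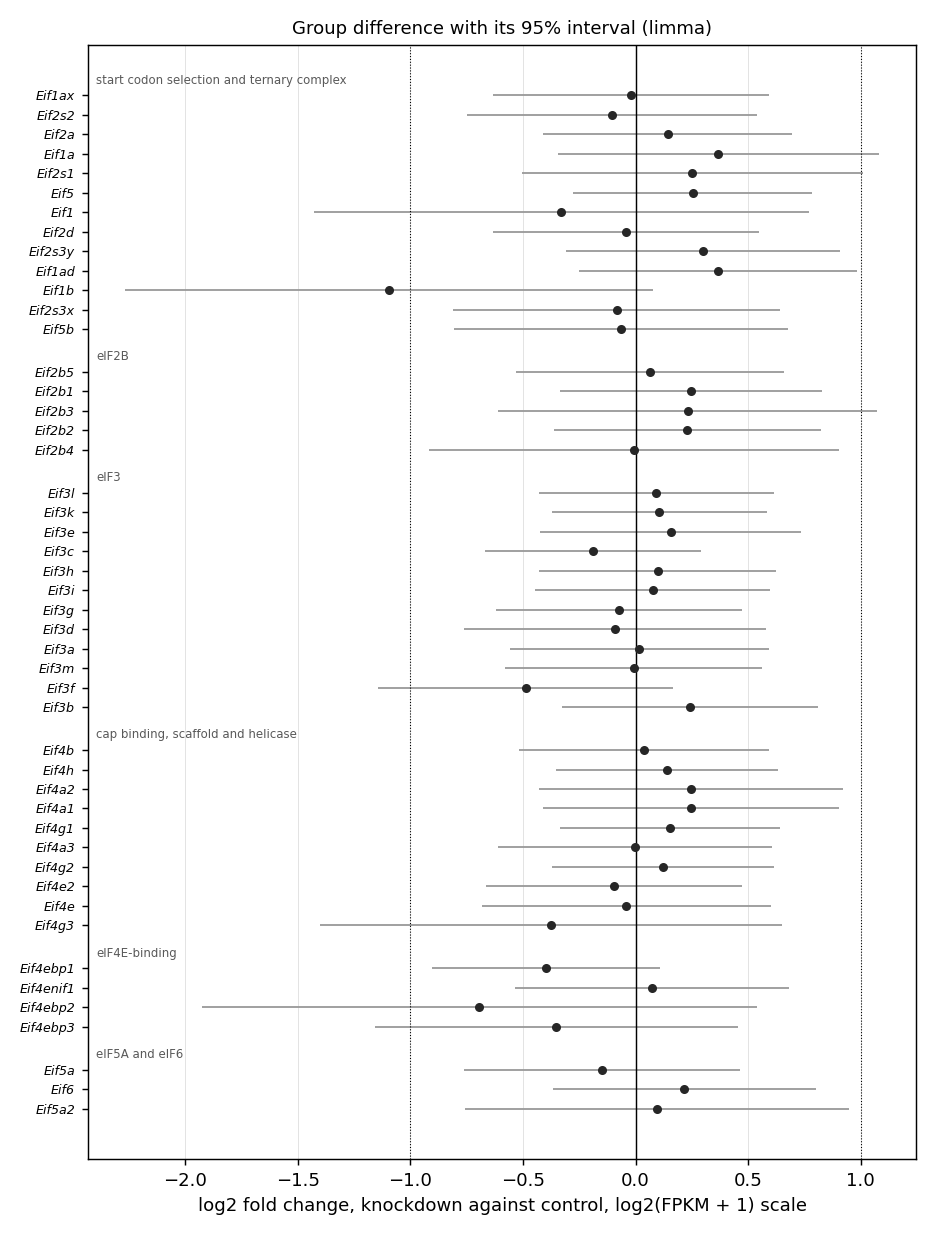
Log2 fold change of each initiation factor gene (knockdown against control, log2(FPKM + 1) scale) with its 95% interval from limma; dotted lines mark 1 log2 unit either way. The interval of every gene crosses 0, and 38 of 47 intervals lie wholly within 1 log2 unit of it.

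The size of change that these libraries can bound was read from the 95% intervals. Intervals that kept wholly to between -1 and 1 were found for 38 of the 47 genes, a share of 80.9%, against 32.8% of tested loci. The median half-width was 0.61 for the initiation factor genes and 0.90 over tested loci. These are well-expressed genes: 35 lay in the highest of 5 equal groups of tested loci by level, 6 in the next and 6 below. The 9 genes whose interval reached past 1 log2 unit were Eif1, Eif1b, Eif1a, Eif2s1, Eif2b3, Eif3f, Eif4g3, Eif4ebp2 and Eif4ebp3.

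**Figure D2:**
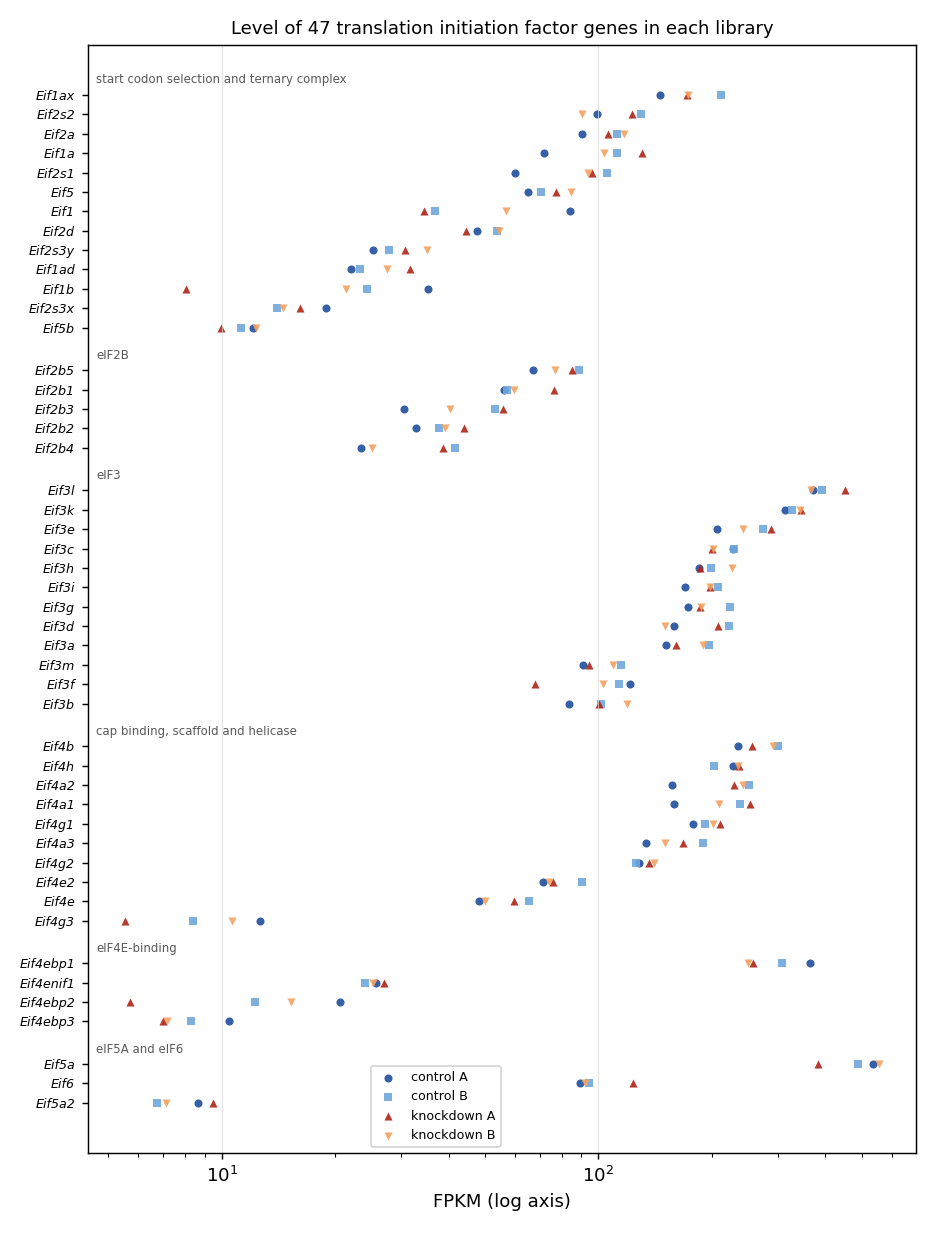
FPKM of the 47 initiation factor genes in each library on a log axis, grouped by role and ordered by mean level within a group. Levels span from 7.98 FPKM (mean of Eif5a2) to 490.2 FPKM (mean of Eif5a), and control and knockdown symbols are mixed in most rows.

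The first group holds the factors of start codon selection and of the eIF2 ternary complex. The related Eif1ad and the joining factor Eif5b were placed with them. This group has 13 genes with means of 11.4 to 175 FPKM. Its members had 6 positive and 7 negative log2 fold changes with a median of -0.02. eIF1, the small protein that keeps the scanning ribosome open, is encoded by Eif1 and Eif1b. Eif1 (NM_011508; mm9 chromosome 11, 100181309 to 100183410) measured 84.2 (A) and 36.9 (B) FPKM in controls, against 34.4 (A) and 56.8 (B) after knockdown. The highest and the next to lowest of its values were both controls, so the groups overlapped. Eif1b (NM_026892; chromosome 9, 120401723 to 120404445) had control levels of 35.4 (A) and 24.2 (B) FPKM, with 8.02 (A) and 21.3 (B) FPKM under knockdown. Both knockdown values were below both controls, knockdown B by little and knockdown A by much more. The means were 29.8 ± 7.86 and 14.7 ± 9.42 FPKM (SD, n = 2 each), the log2 fold change was -1.09 (standard error 0.48) and the limma adjusted p was 0.918. Without knockdown A the value was -0.44 and without knockdown B -1.75, so its size rested on knockdown A. An estimated 25.1 fragments lay behind the value of knockdown A, against 86.6 to 150 in the other libraries. Eif1 was above Eif1b in all 4 libraries, by 1.52 to 4.29 times.

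The coding sequences of Eif1 and Eif1b, 342 bases each, agree at 81.3% of positions, and their longest shared run is 25 bases. The untranslated parts of the transcripts, which also give reads, were not compared. The first 90 coding bases are shown as an example, with the 13 differing bases in capitals (GENCODE M21 transcripts, GRCm38, 5′ to 3′ on the coding strand).
Eif1: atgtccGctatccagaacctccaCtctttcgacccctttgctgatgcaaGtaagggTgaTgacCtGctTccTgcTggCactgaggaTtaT
Eif1b: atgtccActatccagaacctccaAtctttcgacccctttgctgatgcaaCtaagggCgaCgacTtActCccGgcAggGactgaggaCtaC
How the authors treated reads that fit more than 1 place is not given in the sources used here.

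eIF1A, the partner of eIF1 on the small subunit, comes from Eif1a on chromosome 18 and from Eif1ax on the X. Eif1a (NM_010120; mm9 46757357 to 46769879) gave 71.6 (A) and 112 (B) FPKM in control cells, set against 130 (A) and 103 (B) in Kdm5b knockdown. Control A alone was low, and knockdown B lay between the controls. Its log2 fold change of 0.37 (standard error 0.29) was the most positive of the 47 and was 0.05 without control A. Eif1ax (NM_025437; mm9 chromosome X, 155810126 to 155823631) measured 145 (A) and 211 (B) FPKM in controls, against 172 (A) and 173 (B) after knockdown, with both knockdown values inside the control range. It was the most abundant gene of the group and exceeded Eif1a by 1.32 to 2.03 times. The Eif1a transcript used has 765 coding bases and that of Eif1ax has 435. Only 435 bases were aligned, and these agree at 85.5%. The related Eif1ad (NM_027236; chromosome 19, 5364632 to 5371511) had control levels of 22.0 (A) and 23.3 (B) FPKM, with 31.6 (A) and 27.5 (B) FPKM under knockdown. The knockdown values were the higher pair, at a log2 fold change of 0.36 (standard error 0.25) that missed the limma threshold (adjusted p = 0.918). Its locus overlaps Banf1, so the fragments of the 2 genes may be shared.

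eIF2 carries the initiator tRNA and has 3 subunits, of which Eif2s1 is the one phosphorylated under stress. Eif2s1 gave 60.1 (A) and 105 (B) FPKM in control cells, set against 96.4 (A) and 93.9 (B) in Kdm5b knockdown, so control A was low and the rest were close together. Eif2s2, the beta subunit, ranged from 90.5 to 130 FPKM, with its lowest value in knockdown B and its highest in control B. The gamma subunit, which binds GTP and the tRNA, has a copy on each sex chromosome in the mouse. Eif2s3x (NM_012010; mm9 chromosome X, 91434047 to 91457990) measured 18.96 (A) and 14.0 (B) FPKM in controls, against 16.2 (A) and 14.6 (B) after knockdown. Eif2s3y (NM_012011; chromosome Y, 347054 to 365037) had control levels of 25.3 (A) and 27.8 (B) FPKM, with 30.7 (A) and 35.1 (B) FPKM under knockdown. The Y copy was above the X copy in each library, by 1.33 to 2.41 times, and the knockdown values of the Y copy were both above the controls (log2 fold change 0.30 with an SE of 0.25, adjusted p = 0.918 by limma). The X copy overlapped between groups at -0.08 (standard error 0.30). Their sum, 41.8 to 49.7 FPKM, stayed under Eif2s1 and Eif2s2 in every library.

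The coding sequences of the X and Y copies are each 1419 bases long and agree at 86.3%, with a longest shared run of 34 bases. The untranslated parts were not compared here either. As an example, their first 90 coding bases differ at 16 positions, which are in capitals (GENCODE M21, GRCm38, coding strand, 5′ to 3′).
Eif2s3x: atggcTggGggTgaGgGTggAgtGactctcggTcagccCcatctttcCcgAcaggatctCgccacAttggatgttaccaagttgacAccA
Eif2s3y: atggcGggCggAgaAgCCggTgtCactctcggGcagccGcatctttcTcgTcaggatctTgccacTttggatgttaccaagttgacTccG

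Eif5, whose protein triggers GTP hydrolysis on eIF2, gave 64.9 (A) and 70.4 (B) FPKM in control cells, set against 77.0 (A) and 84.6 (B) in Kdm5b knockdown. Both knockdown values were above both controls (log2 fold change 0.25 with an SE of 0.22, adjusted p = 0.918 by limma). Its locus holds the small nucleolar RNA Snora28, which was listed at 29608 to 38889 FPKM; levels of so short an RNA are not on a par with those of mRNA. Eif5b, the factor of subunit joining and the least abundant gene of the group, measured 12.1 (A) and 11.3 (B) FPKM in controls, against 9.97 (A) and 12.4 (B) after knockdown. These values overlapped, and the locus shares its interval with Rev1. Eif2a and Eif2d, which can bring initiator tRNA to the ribosome without eIF2, had log2 fold changes of 0.14 (standard error 0.23) and -0.04 (0.24).

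eIF2B is the exchange factor that reloads eIF2 with GTP and is the target through which phosphorylated eIF2 blocks translation. Of its 5 subunit genes 4 had a positive log2 fold change, with a median of 0.23, and none passed the limma test. These signs depended on control A. Without it Eif2b3, Eif2b4 and Eif2b5 were at -0.16, -0.41 and -0.14, and Eif2b1 and Eif2b2 at 0.23 and 0.13. Eif2b5, the catalytic subunit and the most abundant, had control levels of 67.2 (A) and 88.8 (B) FPKM, with 85.3 (A) and 76.5 (B) FPKM under knockdown, which overlap. Eif2b1, a regulatory subunit, gave 56.2 (A) and 57.3 (B) FPKM in control cells, set against 76.4 (A) and 59.7 (B) in Kdm5b knockdown. Both knockdown values were above the controls, knockdown B only slightly, and the log2 fold change of 0.25 (standard error 0.24) became 0.07 without knockdown A and 0.42 without knockdown B. Eif2b2 measured 32.8 (A) and 37.8 (B) FPKM in controls, against 44.0 (A) and 39.1 (B) after knockdown, again apart but by little. Eif2b3 and Eif2b4 followed a different order. Eif2b3 had control levels of 30.5 (A) and 53.2 (B) FPKM, with 55.8 (A) and 40.4 (B) FPKM under knockdown, whereas Eif2b4, the least abundant, had 23.5 (A) and 41.6 (B) against 38.6 (A) and 25.02 (B) FPKM. In both genes control B and knockdown A were the high libraries and control A and knockdown B the low ones. The Eif2b4 interval of the table (mm9 chromosome 5, 31235515 to 31651218) runs across many other genes. Within a library the highest eIF2B subunit exceeded the lowest by 2.21 to 3.06 times.

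eIF3, the largest initiation factor, was represented by 12 subunit genes with means of 101 to 395 FPKM. Their log2 fold changes were positive for 7 and negative for 5, with a median of 0.05, and none passed the limma test. Eif3l (NM_145139; mm9 chromosome 15, 78905652 to 78924830) was the most abundant, with 372 (A) and 392 (B) FPKM in controls and 452 (A) and 366 (B) after knockdown. Eif3k came next with 313 (A) and 327 (B) FPKM in controls and 344 (A) and 344 (B) under knockdown. This pair, whose proteins lie together at the edge of the complex, ranked first and second in all 4 libraries. At the other end Eif3b, a scaffold subunit, gave 83.5 (A) and 102 (B) FPKM in control cells, set against 100.2 (A) and 119 (B) in Kdm5b knockdown, with overlap (log2 fold change 0.24, standard error 0.23). Eif3m, Eif3f and Eif3b took the 3 lowest ranks in each library. The highest subunit exceeded the lowest by 4.46 and 3.85 times in control A and B and by 6.66 and 3.57 times in knockdown A and B.

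Eif3f (NM_025344; mm9 chromosome 7, 116077928 to 116085456) had the most negative log2 fold change of the eIF3 genes. It measured 121 (A) and 113 (B) FPKM in controls, against 67.8 (A) and 103 (B) after knockdown. Both knockdown values were below the controls, knockdown A well below and knockdown B close to control B. The means were 117 ± 5.61 and 85.2 ± 24.6 FPKM (SD, n = 2 each) and the log2 fold change was -0.49 (SE 0.27, limma adjusted p = 0.918). Without knockdown A it was -0.19 and without knockdown B -0.78. Eif3c, a subunit that binds eIF1 and eIF5, differed in another way, with 228 (A) and 229.7 (B) FPKM in controls and 200.1 (A) and 201 (B) after knockdown. Its values were close together within each group and apart between them, the knockdown mean being 0.876 times the control mean. The log2 fold change was -0.19 (standard error 0.20), also with any 1 library left out. The limma adjusted p was 0.918, in a test that draws the spread of each locus toward that of loci of like level.

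Eif3k lay just above both controls, and every other eIF3 gene apart from Eif3f and Eif3c overlapped between the groups. Eif3e had control levels of 206 (A) and 273 (B) FPKM, with 288 (A) and 243 (B) FPKM under knockdown. Eif3h, Eif3i, Eif3g, Eif3d and Eif3a had means of 174 to 199 FPKM and log2 fold changes between -0.09 and 0.10. Eif3a, the large subunit on which the complex is built, was at 0.02 (standard error 0.24), a value that turned to -0.03 with quantile normalization. The locus of Eif3a holds Snora19 and Mir3084-2, and that of Eif3b holds Mir7038. Eif3j1, the loosely bound subunit, gave 0.205 (A) and 0.105 (B) FPKM in control cells, set against 0 (A) and 0.106 (B) in Kdm5b knockdown. Its coding sequence has 786 bases and that of Eif3j2 has 792. The 786 aligned bases are 100% identical. Eif3j2 has no row of its own among the named loci, so the level of this subunit cannot be read from the table.

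The cap-binding factor, its scaffolds and the helicase with its helpers made up 10 genes, with a median log2 fold change of 0.08, 6 positive and 4 negative. None passed the limma test. Eif4e (NM_007917; mm9 chromosome 3, 138189154 to 138220563), the cap-binding protein, measured 48.2 (A) and 65.5 (B) FPKM in controls, against 59.7 (A) and 49.9 (B) after knockdown. Both knockdown values lay inside the control range, and the log2 fold change was -0.04 (95% interval -0.68 to 0.60). Eif4e2, a cap-binding relative that is known to repress rather than start translation, had control levels of 71.1 (A) and 90.3 (B) FPKM, with 75.9 (A) and 73.8 (B) FPKM under knockdown. It was above Eif4e in every library, by 1.27 to 1.48 times. The third relative, Eif4e3, lay under the minimum with 0.587 (A) and 0.801 (B) FPKM in controls and 0 (A) and 0.407 (B) after knockdown.

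Eif4g1, the main scaffold, gave 178 (A) and 192 (B) FPKM in control cells, set against 209.8 (A) and 201 (B) in Kdm5b knockdown. Its knockdown values were the higher pair, as were those of Eif4g2, a relative that lacks the part that binds eIF4E, with 128 (A) and 126 (B) FPKM in controls and 136 (A) and 140.2 (B) after knockdown. The log2 fold changes were 0.15 for Eif4g1 (95% interval -0.34 to 0.64) and 0.12 for Eif4g2 (-0.37 to 0.61). Eif4g3, the least abundant gene of the group, measured 12.7 (A) and 8.40 (B) FPKM in controls, against 5.55 (A) and 10.7 (B) after knockdown, with the highest value in control A and the lowest in knockdown A. Eif4g1 exceeded Eif4g3 by 14.1 to 37.8 times.

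The helicase eIF4A, which unwinds the leader of the mRNA, is encoded by Eif4a1 and Eif4a2. Eif4a1 had control levels of 158 (A) and 237 (B) FPKM, with 252 (A) and 209 (B) FPKM under knockdown. Eif4a2 gave 157 (A) and 251 (B) FPKM in control cells, set against 229 (A) and 242 (B) in Kdm5b knockdown. In both genes control A was the low library and the other 3 were close together, and the 2 genes were nearly equal, with Eif4a2 at 0.906 to 1.16 times Eif4a1. The locus of Eif4a2 holds Snora81 and Snord2 and overlaps Rfc4. Eif4a3, the copy that serves in the exon junction complex on spliced mRNA, ranged from 134 to 189 FPKM with a log2 fold change of -0.0031. Of the helpers of the helicase, Eif4b was the most abundant gene of the group with 234 (A) and 300.3 (B) FPKM in controls and 255 (A) and 291 (B) after knockdown. Eif4h measured 227 (A) and 202 (B) FPKM in controls, against 237 (A) and 235 (B) after knockdown, just above both controls.

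**Figure D3:**
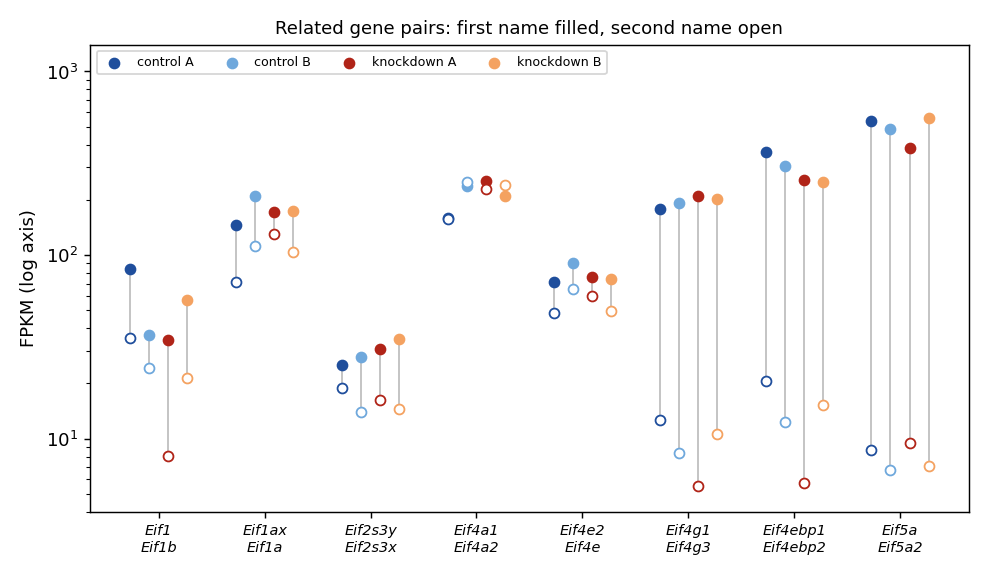
FPKM on a log axis of 8 related gene pairs, the first name as filled and the second as open circles, with the 4 libraries side by side and a line joining the 2 genes within each library. The order within a pair was the same in all libraries for 7 of the 8 pairs, Eif4a1 and Eif4a2 being the exception.

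The eIF4E-binding genes had a median log2 fold change of -0.37, with 3 of 4 negative and none past the limma test. Eif4ebp1 (NM_007918; mm9 chromosome 8, 28370798 to 28386128), a 4E-BP that holds eIF4E away from the scaffold until mTOR phosphorylates it, had control levels of 364 (A) and 307 (B) FPKM, with 258 (A) and 249.8 (B) FPKM under knockdown. Both knockdown values were below both controls. The means were 336 ± 40.3 and 254 ± 5.81 FPKM (SD, n = 2 each), and the log2 fold change was -0.40 (standard error 0.21, 95% interval -0.90 to 0.11, limma adjusted p = 0.918). It lay between -0.52 and -0.27 whichever library was left out. Eif4ebp1 RNA exceeded that of Eif4e by 7.56 and 4.69 times in control A and B and by 4.32 and 5.01 times in knockdown A and B, so this ratio overlapped between groups.

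Eif4ebp2 gave 20.5 (A) and 12.3 (B) FPKM in control cells, set against 5.72 (A) and 15.3 (B) in Kdm5b knockdown. Knockdown A was the low library with an estimated 24.6 fragments, and knockdown B lay between the controls. The log2 fold change of -0.69 (standard error 0.51) became -0.06 without knockdown A. Eif4ebp3, on chromosome 18, measured 10.5 (A) and 8.28 (B) FPKM in controls, against 6.997 (A) and 7.17 (B) after knockdown, both below the controls at an estimated 15.7 to 31.8 fragments (log2 fold change -0.35 with an SE of 0.33, adjusted p = 0.918 by limma). Eif4enif1, the carrier that moves eIF4E into the nucleus and into processing bodies, stood between 23.97 and 27.03 FPKM in all libraries. Eif4ebp1 was the most abundant 4E-BP RNA, above Eif4ebp2 by 16.4 to 45.1 times.

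eIF5A, despite its name, acts mainly in elongation and carries the modified amino acid hypusine. Eif5a (NM_181582 and further identifiers; mm9 chromosome 11, 69730213 to 69735460) was the most abundant of the 47 genes, with 535 (A) and 489 (B) FPKM in controls and 382 (A) and 555 (B) after knockdown. The highest and the lowest value were both knockdown libraries. Its relative Eif5a2, the least abundant of all, had control levels of 8.64 (A) and 6.72 (B) FPKM, with 9.46 (A) and 7.11 (B) FPKM under knockdown, lower than Eif5a by 40.4 to 78.1 times. Eif6, which keeps the ribosomal subunits apart, gave 89.1 (A) and 94.4 (B) FPKM in control cells, set against 123 (A) and 92.3 (B) in Kdm5b knockdown. Only knockdown A was high.

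The libraries were then set against each other gene by gene. Control A gave the lowest value for 28 of the 47 genes, control B for 5, knockdown A for 10 and knockdown B for 4. The lowest library was not counted over other loci, so these counts are not shown to be particular to the 47 genes. Control B was above control A for 33 of the 47, with a median difference of 0.13 in log2(FPKM + 1), where 48.3% of tested loci were above and the median was -0.02. Among the tested loci of the highest of the 5 level groups, where most initiation factor genes lie, 64.0% were above, with a median of 0.16. Against the control mean, the median of the 47 genes was 0.10 in knockdown A and 0.04 in knockdown B. In that highest group of loci these medians were 0.11 and 0.04. Of the 8 genes that were highest in control A, 6 were lowest in knockdown A, namely Eif1, Eif1b, Eif3f, Eif4g3, Eif4ebp2 and Eif4ebp3. How often other loci have that order was not counted.

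**Figure D4:**
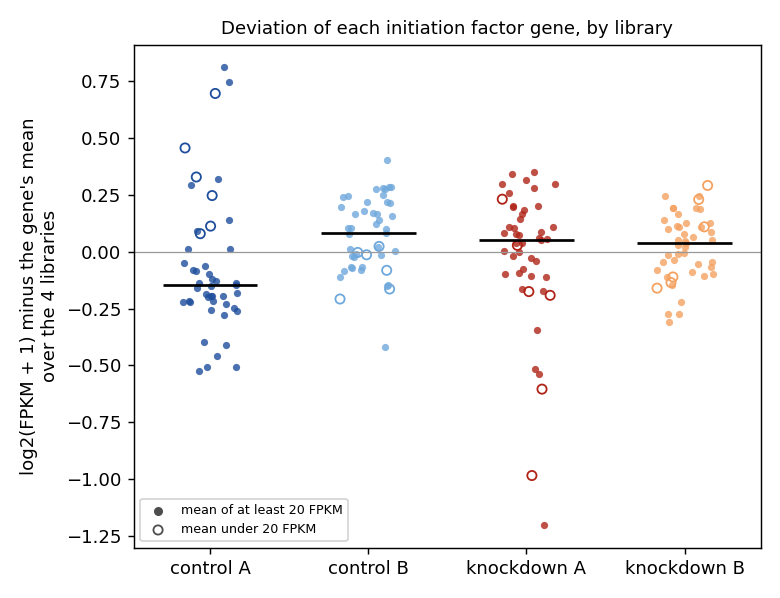
Each point is an initiation factor gene in 1 library, as log2(FPKM + 1) minus the mean of that gene over the 4 libraries; open circles are genes with a mean under 20 FPKM and bars are medians over the 47 genes. The medians are -0.15 in control A, 0.08 in control B, 0.05 in knockdown A and 0.04 in knockdown B.

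The median over the 47 genes therefore depended on which control was used. It was -0.09 without control A and 0.16 without control B, and 18 and 35 of the 47 genes were then positive. Leaving out knockdown A or B gave 0.04 and 0.10. Over the 47 genes the difference of control B from control A and that of knockdown A from knockdown B had a Pearson r of 0.62 and a Spearman rho of 0.45. Among the 41 genes with a mean of at least 20 FPKM Pearson's r was 0.62. Over all tested loci it was 0.07 and in the highest of the 5 level groups -0.06. These are correlations across genes, which share their libraries and are not independent, and no test was made.

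Sequence upstream of the genes was described for the 38 initiation factor genes with an entry in the RefSeq promoter table (GRCm38.p6). In the 250 bases before the most upstream start listed there, 4 motifs were searched on both strands. The E-box CACGTG, the site of Myc and related factors, was found in 7 of 38 genes (18.4%), against 6.04% of all promoters and 8.83% of those of tested genes. The ETS core CCGGAAGT was found in 7.89% of the genes against 6.38% of the promoters of tested genes, the NRF1 palindrome in 2.63% against 1.76%, and CCAAT in 26.3% against 37.4%. A match is a description and not a site of binding, and neither binding nor promoter activity was measured here. The genes with an E-box were Eif1b, Eif3f, Eif3k, Eif4a1, Eif4g1, Eif4h and Eif5a2, the last with 2 matches. Their means ran from the lowest of the 47 genes to 332 FPKM, and their log2 fold changes from -1.09 for Eif1b to 0.25 for Eif4a1. For Eif1b and Eif4h the window around the match reached into an annotated exon of the same gene. Both genes are counted above, but their windows are not printed. The windows outside annotated exons are shown 5′ to 3′ on the strand of the gene to give the context of the motif, in capitals. Each has the distance from the end of the motif to the start site.
Eif3f, chr7:108934335-108934364, plus strand, 63 bases before the start: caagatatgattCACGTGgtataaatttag
Eif3k, chr7:28981915-28981944, minus strand, 39 bases before the start: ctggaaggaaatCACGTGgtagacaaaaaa
Eif4a1, chr11:69672595-69672624, minus strand, 184 bases before the start: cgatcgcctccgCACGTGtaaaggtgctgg
Eif4g1, chr16:20672661-20672690, plus strand, 49 bases before the start: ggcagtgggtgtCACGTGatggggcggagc
Eif5a2, chr3:28781123-28781152, plus strand, 137 bases before the start: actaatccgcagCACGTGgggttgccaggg
Eif5a2, chr3:28781148-28781177, plus strand, 112 bases before the start: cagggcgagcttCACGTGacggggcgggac

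The other genes of translation and of its control were read from the same fit. Of 51 listed, 49 were tested, and 0 passed limma at an adjusted p under 0.05 or at an unadjusted p under 0.05, where 2.46% of tested loci passed the latter. Their median log2 fold change was -0.06, with 21 positive and 28 negative. Both knockdown libraries lay above both controls for 4 and below both for 9, where 15.0% and 16.9% of tested loci did so. Among 8 elongation genes the median was 0.01. Eef1e1, a partner of the tRNA synthetase complex, was at a log2 fold change of 0.58 (SE 0.34), and Eef1b2, an exchange factor of the elongation factor eEF1A, at 0.22 (0.20). Eef1e1 was at 0.13 without control A and 1.02 without control B, and Eef1b2 at 0.14 and 0.29. Among 9 termination and recycling genes 7 were negative (median -0.12). Gspt2, a release factor with a log2 fold change of -1.12 (SE 0.69), measured 5.62 (A) and 5.25 (B) FPKM in controls, against 0.527 (A) and 4.72 (B) after knockdown, so knockdown A alone was far from the rest, and the value was -0.17 without it. Mcts1, which helps recycle the small subunit, was at 0.60 (standard error 0.41), a value that was 0.13 without control A and 1.07 without control B.

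The eIF2 kinases and the phosphatase genes that oppose them had a median of -0.15 over 9 genes. Eif2ak2, the kinase activated by double-stranded RNA, had control levels of 8.61 (A) and 9.15 (B) FPKM, with 4.83 (A) and 7.35 (B) FPKM under knockdown (log2 fold change -0.50, standard error 0.36). Eif2ak4, the kinase that senses uncharged tRNA, gave 7.98 (A) and 9.33 (B) FPKM in control cells, set against 4.10 (A) and 7.17 (B) in Kdm5b knockdown (-0.58, standard error 0.39). Both kinases were below both controls in both knockdown libraries, lowest in knockdown A, and neither passed limma (adjusted p = 0.918 for each). Without knockdown A both stood at -0.24, and without knockdown B Eif2ak2 was at -0.76 and Eif2ak4 at -0.92. Of 10 genes of mTOR and MNK signalling to eIF4E, 5 were positive and 5 negative. Pdcd4, an inhibitor of eIF4A, measured 24.7 (A) and 16.9 (B) FPKM in controls, against 1.56 (A) and 18.6 (B) after knockdown. The Pdcd4 locus overlaps Bbip1 and Shoc2, so the fragments of these genes may be shared. The log2 fold change of Pdcd4, -1.60 (standard error 0.90), was -0.13 without knockdown A. Without knockdown B it was -3.07 and passed limma (adjusted p = 0.0449), so that call rests on knockdown A alone. Rps6 encodes the ribosomal protein phosphorylated by the kinase S6K. It measured 9.29 (A) and 14.4 (B) FPKM in controls, against 25.3 (A) and 14.97 (B) after knockdown. Its log2 fold change was 0.71 (standard error 0.38), with 0.35 without knockdown A and 1.07 without knockdown B. These levels are low beside the elongation factor gene Eef1a1, with a mean of 3123 FPKM. Whether fragments of Rps6 were lost or counted at other loci was not tested.

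Partners of scanning and of the poly(A) tail had a median of 0.02 over 9 genes, with Ncbp2, a subunit of the nuclear cap-binding complex, at -0.28 (standard error 0.33) and the helicase Ddx3x at -0.23 (0.23). Ddx3x was at -0.043 without control B and -0.42 without control A, and Ncbp2 turned to 0.049 without knockdown A. The enzymes that make hypusine, Dhps and Dohh, were at 0.17 (standard error 0.32) and -0.05 (0.24). The mitochondrial initiation factors Mtif2 and Mtif3 were at 0.36 (standard error 0.35) and -0.49 (0.48). Mtif3 was at -0.078 without knockdown A and -0.91 without knockdown B, and Mtif2 turned to -0.047 without control A.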

How the data were processed

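The authors deposited 1 table of FPKM per locus and library. The submitters' processing notes name Cufflinks, Cuffdiff and the build mm9. Per the labels' protocols, RNA depleted of ribosomal RNA was reverse transcribed from both primer types (oligo-dT, random hexamers) into directional cDNA libraries. No version, aligner or strand setting is given in the sources used here, so overlapping genes may share fragments; 12 of the 47 genes share an interval with another locus. RefSeq identifiers gave 1 symbol to 23241 of 23697 loci through a table of GRCm38.p6, used for names only; coordinates of loci are those of the table, in mm9, and printed sequences carry GRCm38 positions.

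Loci whose mean reached 1 FPKM were tested on log2(FPKM + 1) with limma 3.58.1 in R 4.3.3 (group alone, eBayes with trend, two-sided, Benjamini-Hochberg adjustment over all 11784 loci, calls under 0.05). Depth was estimated from low values in transcripts of over 1500 bp. The step taken as 1 fragment was the one that brought most of these values within 0.15 of whole fragments. At that step 80.9% to 84.5% of them did so, a share made as large as possible by the choice and no separate check of it. The estimates put the libraries at 74.0% to 100% of the deepest. Coding sequences were aligned with Biopython 1.88. The genes described in full were the 6 with the smallest p on each side, the most and least abundant of each role group and related pairs, and in the other lists the 2 with the largest absolute log2 fold change. Members and lists were chosen with earlier results of these data known. Alternatives were another pseudocount, other filters, quantile and upper-quartile scaling, eBayes without trend, the replicate letter as a block and each library left out.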

Additional observations from a re-analysis of the deposited data

How the results depend on the processing

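No initiation factor gene passed limma at an adjusted p under 0.05 in any alternative, with a lowest adjusted p between 0.0878 (without knockdown B) and 1.0. At an unadjusted limma p under 0.05, the alternatives that kept all 4 libraries gave 0 of the 47, or 1 with the replicate letter as a block. The share of all loci at that threshold was not taken for these fits, so the count has no background to be read against. Calls over all loci were 4 as reported, 6 with a pseudocount of 0.1, 1 of 17172 loci with no filter, 2 without the trend, 7 with the replicate letter as a block (replicate block), 0 without either control, 13 without knockdown A and 134 without knockdown B. The block left the median of the 47 genes at 0.06. Libraries of the same letter deviated from their group means with a correlation of -0.07 over tested loci and -0.62 over the 47 genes. The latter is the Pearson r of 0.62 given above, with the order of the controls turned. With 2 letters a group these values do not show a pairing. A fit without 1 library leaves 1 library in a group, which is assumed to vary like the others. The median of the 47 genes then ran from -0.085 (without control A) to 0.16 (without control B), and the count of related translation genes called from 0 to 1, the 1 being Pdcd4 without knockdown B. Eif3a turned to -0.0258 under quantile normalization and -0.00044 under upper-quartile scaling; the cause was not tested. With each library left out in turn, 19 of the 47 genes kept their sign and 28 turned at least once. Dhps, Dohh, Mtif2 and Ncbp2, which are not among the 47 but among the other translation genes, also turned and are listed with them. The log2 fold changes of the genes that turned ran as follows: Dhps -0.18 to 0.53, Dohh -0.23 to 0.13, Eif1 -0.91 to 0.26, Eif1ax -0.29 to 0.25, Eif2a -0.0093 to 0.29, Eif2b3 -0.16 to 0.62, Eif2b4 -0.41 to 0.39, Eif2b5 -0.14 to 0.26, Eif2d -0.19 to 0.10, Eif2s1 -0.15 to 0.65, Eif2s2 -0.32 to 0.11, Eif2s3x -0.29 to 0.12, Eif3a -0.17 to 0.20, Eif3d -0.33 to 0.15, Eif3e -0.046 to 0.36, Eif3g -0.26 to 0.11, Eif3h -0.044 to 0.24, Eif3i -0.067 to 0.22, Eif3l -0.059 to 0.24, Eif3m -0.17 to 0.16, Eif4a1 -0.044 to 0.54, Eif4a2 -0.090 to 0.58, Eif4a3 -0.25 to 0.25, Eif4b -0.14 to 0.22, Eif4e -0.26 to 0.18, Eif4e2 -0.27 to 0.073, Eif4g3 -0.79 to 0.042, Eif5a -0.42 to 0.12, Eif5a2 -0.088 to 0.28, Eif5b -0.21 to 0.076, Mtif2 -0.047 to 0.76 and Ncbp2 -0.61 to 0.049. Some initiation factor genes kept their sign but had a value that moved by over 1.5 times from the value with all libraries. They were Eif1a 0.046 to 0.69, Eif1b -1.75 to -0.44, Eif2b1 0.071 to 0.42, Eif2b2 0.13 to 0.33, Eif3b 0.10 to 0.38, Eif3f -0.78 to -0.19, Eif4ebp2 -1.33 to -0.055, Eif4ebp3 -0.50 to -0.20, Eif4enif1 0.023 to 0.12, Eif4g1 0.10 to 0.21, Eif4h 0.055 to 0.22 and Eif6 0.0081 to 0.42. An estimated 15.7 to 31.8 fragments lay behind the values of Eif4ebp3, the fewest among the genes with an estimate.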
